A study of Rattus norvegicus with 8 samples.

Results

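The SLC25 family makes up most of the solute carriers of the mitochondrial inner membrane. Rows of the deposited rat liver gene table whose symbol begins with Slc25a and a number were taken as members, leaving out the citrate carrier Slc25a1 and the carnitine carrier Slc25a20. This gave 42 members among the 32545 genes of the table. The livers came from wild type Sprague-Dawley rats, an outbred strain, of about 22 weeks of age by the labels, which is less than the feeding time they give. Rats on the normal diet (ND, 3 libraries) ate rodent chow with 8.5% of calories from fat, 59.6% from carbohydrate and 20.3% from protein. Rats on the high fat diet (HFD, 5 libraries) received 41% of calories from fat, 43% from carbohydrate and 17% from protein. A feeding time of 24 weeks is listed for both diets. Each diet had 12 rats. The labels do not tie libraries to rats, so each library is taken as 1 rat, and p-values measure the spread between libraries, which may be partly technical.

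Carriers of this family move small metabolites, nucleotides, cofactors and ions across a membrane that is otherwise closed to them, most of them by exchanging one substrate for another. In hepatocytes they supply ADP and phosphate to ATP synthase, pass aspartate, glutamate, malate and ornithine between mitochondrion and cytosol for the redox shuttles and the urea cycle, and bring in cofactors such as coenzyme A, S-adenosylmethionine and folate. Several members have a close relative whose expression is known to favour another tissue, such as muscle, brain or testis.

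Total gene counts ran from 12678616 to 36152937 per library. A deep set of 4 libraries (HFD-1, HFD-2, ND-1 and ND-3) had 30501673 counts or more. The other 4 form a shallow set with 18401981 or fewer, in which ND-2 is the 1 ND library beside HFD-3 to HFD-5. All 6 hepatocyte markers were found, and their summed level was 53340 to 58530 FPKM in ND and 57010 to 59480 FPKM in HFD (FPKM is the authors' count scaled by gene length and library total). Summed Kupffer cell markers were at 308 FPKM in HFD-3 and between 107 and 184 FPKM in the other libraries. Summed lymphocyte and neutrophil markers were at 45.9 FPKM in HFD-3 and between 6.46 and 22.5 FPKM in the other libraries. In bulk liver, fewer cells of a type and less RNA per cell cannot be told apart.

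The promoter sequences below belong to some of the members described further on. Slc25a47 and Slc25a44 are the members with the smallest p between the diets. Slc25a33 and Slc25a22 are among 5 members that were highest in the same 4 libraries, a pattern noticed after the values were seen. Each run is the 250 bases before the gene's start in RefSeq's GRCr8 assembly, read 5′ to 3′ on the gene's strand, and 36 of 42 members had such an entry. Capitals mark matches on either strand to 6 motifs, which do not overlap in these runs: the cAMP response element TGACGTCA, the E-box CACGTG, the TATA box TATAAA, the CCAAT box CCAAT, the nuclear receptor half-site AGGTCA and the C/EBP-ATF element TGATGCAA.
Slc25a47, chr6:133531491-133531740, plus strand: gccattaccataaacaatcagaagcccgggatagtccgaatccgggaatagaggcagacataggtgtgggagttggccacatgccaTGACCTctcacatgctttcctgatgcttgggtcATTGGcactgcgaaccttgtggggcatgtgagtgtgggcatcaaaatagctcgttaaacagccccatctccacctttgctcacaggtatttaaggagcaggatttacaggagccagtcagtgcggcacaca
Slc25a44, chr2:176180839-176181088, minus strand: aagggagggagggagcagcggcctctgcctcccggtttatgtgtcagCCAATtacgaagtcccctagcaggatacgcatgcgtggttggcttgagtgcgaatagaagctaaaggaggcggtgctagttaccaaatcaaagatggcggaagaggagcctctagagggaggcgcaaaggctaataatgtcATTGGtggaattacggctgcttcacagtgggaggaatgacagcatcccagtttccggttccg
Slc25a33, chr5:165502974-165503223, minus strand: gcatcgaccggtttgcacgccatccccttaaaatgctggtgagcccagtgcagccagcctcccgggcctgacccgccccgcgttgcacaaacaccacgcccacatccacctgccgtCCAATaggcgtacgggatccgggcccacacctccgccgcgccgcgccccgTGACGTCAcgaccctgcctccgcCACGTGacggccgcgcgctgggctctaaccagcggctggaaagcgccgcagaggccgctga
Slc25a22, chr1:205965878-205966127, minus strand: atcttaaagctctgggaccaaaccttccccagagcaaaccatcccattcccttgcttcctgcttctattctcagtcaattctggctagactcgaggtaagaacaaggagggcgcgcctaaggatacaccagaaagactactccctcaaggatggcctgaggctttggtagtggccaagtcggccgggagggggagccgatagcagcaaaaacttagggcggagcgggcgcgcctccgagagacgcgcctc

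The Slc25a47 run holds a half-site 164 bases and a CCAAT box 131 bases before the start, both read on the opposite strand. The Slc25a44 run holds CCAAT boxes 203 and 62 bases before the start. In Slc25a33 a CCAAT box lies at 134 bases, a cAMP response element at 84 and an E-box at 61, and the Slc25a22 run holds none of the 6 motifs. Across members the CCAAT box was in 20 of 36 promoters, against 34% (11385) of all 33469 promoters of the table. The half-site was in 6 of 36 (14.1% of all), the E-box in 3 (5.59%), the cAMP response element in 2, Slc25a33 and Slc25a25 (1.59%), the TATA box in 2 (12.9%) and the C/EBP-ATF element in 0 (0.693%). A match says only that these letters are in the window.

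Slc25a5, the ADP/ATP exchanger, was the most abundant carrier. Averaged over the 8 libraries, 4 members stood at 100 FPKM or more, 5 between 40 and 100, 7 between 10 and 40, 15 between 1 and 10 and 11 below 1 FPKM. The 8 most abundant held 79.9% ± 2.38 (SD, n = 3) of the summed FPKM of the family in ND and 79.2% ± 1.66 (SD, n = 5) in HFD. The family sum was 1144 ± 124 FPKM (SD, n = 3) and 1256 ± 79.7 FPKM (SD, n = 5), with ranges that overlapped. These 8 were the ADP/ATP exchanger Slc25a5, the ornithine carrier Slc25a15, the aspartate/glutamate carrier Slc25a13, Slc25a47, the phosphate carrier Slc25a3, the calcium-regulated ATP-Mg/phosphate carrier Slc25a25, the glutathione carrier Slc25a39 and the dicarboxylate carrier Slc25a10.

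**Figure D1:**
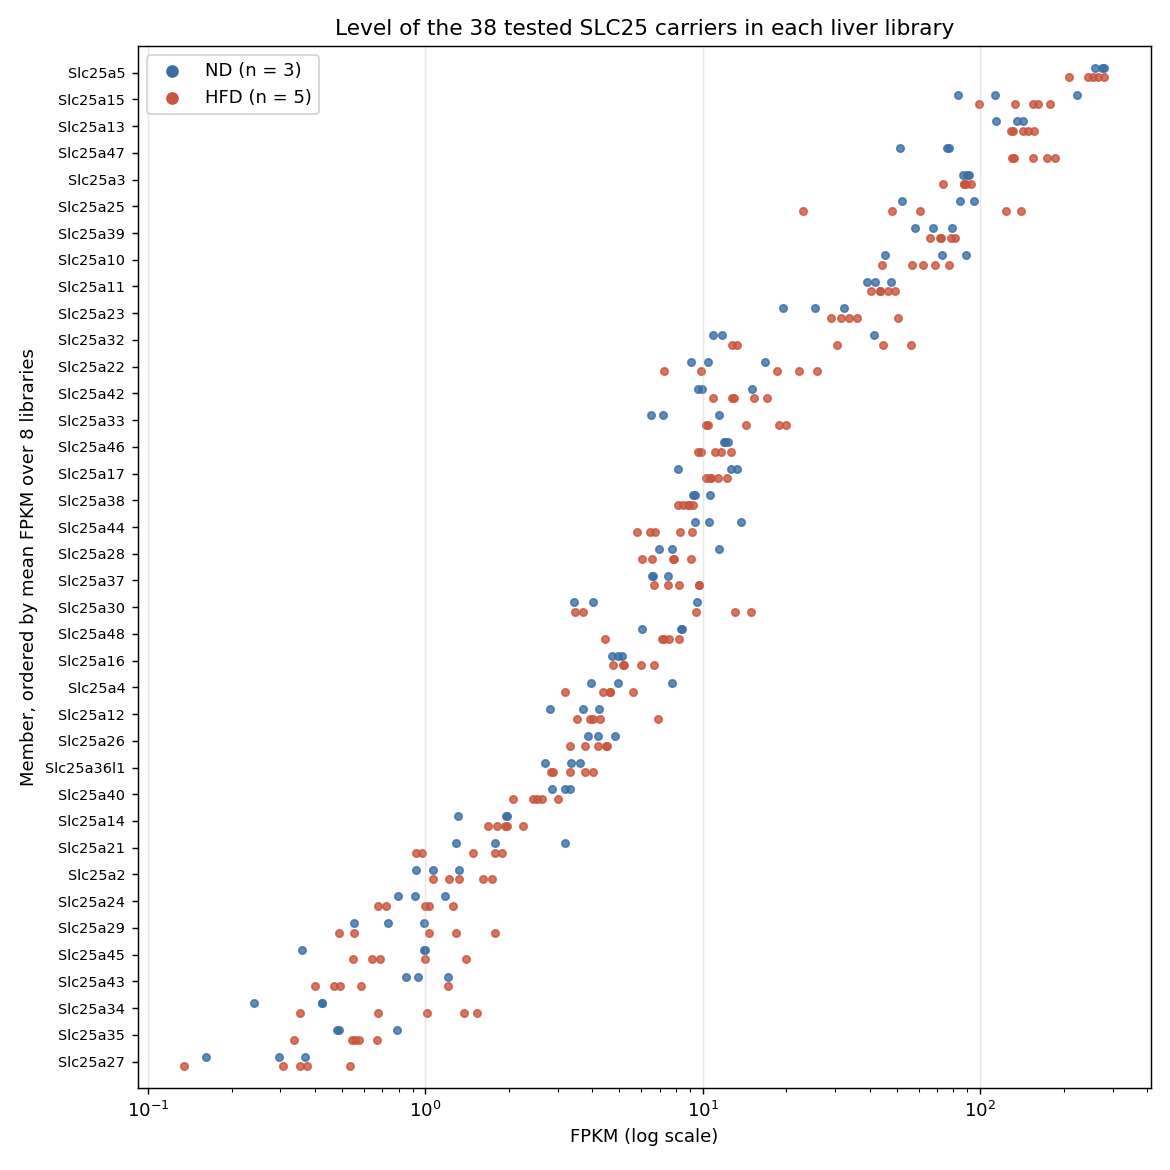
FPKM (log axis) of the 38 tested carriers in each library, 1 point per library, with ND in blue (n = 3) and HFD in red (n = 5), ordered by mean FPKM. Slc25a5 lies at the top between 208 and 281 FPKM, and Slc25a47 is the abundant carrier whose blue and red points are apart.

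The diets were compared with edgeR's quasi-likelihood test over all 14148 genes that passed its filter on low counts, with Benjamini-Hochberg adjustment over those genes and an adjusted p under 0.05 as the threshold. Of the 42 members 38 passed the filter, and 0 of the 38 passed the test, where 0.00707% of all tested genes did (1 gene). At an unadjusted p under 0.05 there were 5 members, Slc25a47, Slc25a34, Slc25a33 and Slc25a23 with higher and Slc25a44 with lower fitted values, against 5.71% of all tested genes. Fitted values were higher in HFD for 22 members and lower for 16, against 7248 and 6900 of all tested genes. The median log2 fold change was 0.04 over members and 0.01 over all tested genes. DESeq2, an alternative test, called 1 member, Slc25a47, and 0.708% of its 17807 genes with an adjusted p.

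**Figure D2:**
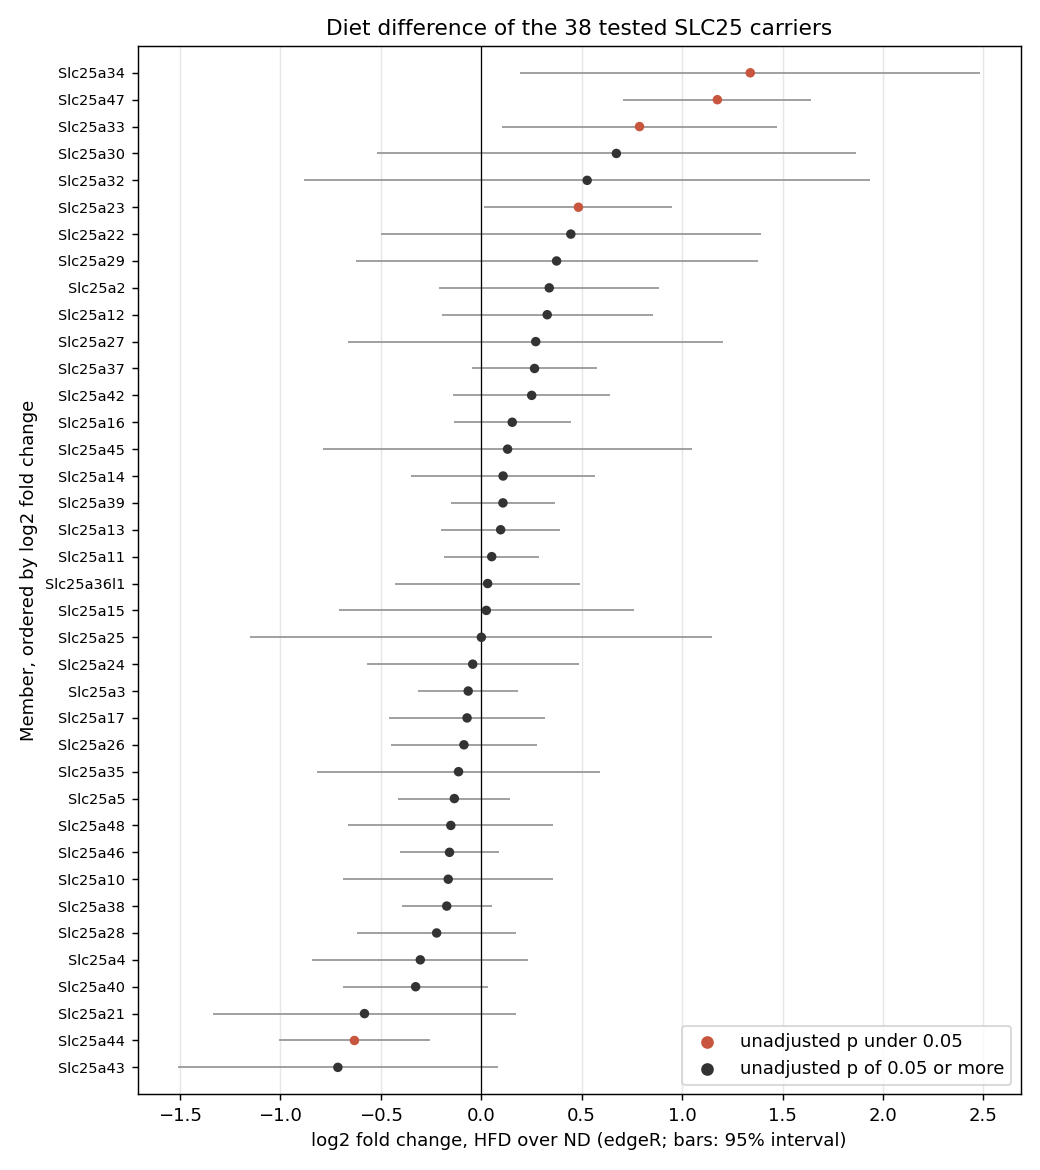
Log2 fold change of each tested carrier, HFD over ND, from edgeR (x axis), with the 95% interval as a bar; red points have an unadjusted p under 0.05. The intervals of Slc25a34, Slc25a47, Slc25a33 and Slc25a23 lie above 0 and that of Slc25a44 below 0, and none of the 38 passed after adjustment.

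Slc25a47, a carrier known for its nearly liver-restricted expression, had the smallest p of the family. Its level was 75.9, 51.2 and 77.4 FPKM in ND-1, ND-2 and ND-3, and 131, 133, 174, 156 and 187 FPKM in HFD-1 to HFD-5. Every HFD library lay above every ND library, which held for 1 of the 38 members and for 2.25% of all tested genes. The means were 68.2 ± 14.7 FPKM (SD, n = 3) and 156 ± 24.7 FPKM (SD, n = 5). The log2 fold change was 1.18 ± 0.21 (SE), with a 95% interval of 0.71 to 1.64, and the adjusted p was 0.118 by edgeR's quasi-likelihood test. DESeq2 gave a log2 fold change of 1.18 ± 0.22 (SE) and an adjusted p of 4.57e-05. The difference in mean log2 CPM was 0.72 within the deep set and 1.80 within the shallow set, where ND-2, the lowest library, is the 1 chow sample. Without ND-2 the log2 fold change was 0.98 (adjusted p = 0.438 by edgeR). Slc25a47 made up 5.96% ± 1.15 (SD, n = 3) of the summed family FPKM in ND and 12.4% ± 1.42 (SD, n = 5) in HFD.

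Slc25a47 (ENSRNOG00000003020) lies on chromosome 6 of Rnor_6.0 at 132762280 to 132768379, 14.5 kb from the end of Slc25a29 (132735883 to 132747828), a carrier of basic amino acids. Slc25a29 was at 0.985, 0.551 and 0.731 FPKM in ND and at 0.49, 0.551, 1.03, 1.78 and 1.28 FPKM in HFD-1 to HFD-5. Its ranges overlapped, and the log2 fold change was 0.38 ± 0.45 (SE, adjusted p = 0.993 by edgeR). The gene pair thus differed widely in level in all 8 libraries.

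Slc25a44 (ENSRNOG00000025269, chromosome 2, 187772013 to 187786712) is known as a carrier of branched-chain amino acids in mouse and human brown fat. It was at 9.36, 13.7 and 10.6 FPKM in ND and at 6.44, 9.12, 5.81, 8.28 and 6.71 FPKM in HFD-1 to HFD-5. The highest HFD value, in HFD-2, was still below the lowest ND value. The log2 fold change was -0.63 ± 0.17 (SE), with an interval of -1.01 to -0.26 and an adjusted p of 0.419 by edgeR. Within the sets the log2 CPM difference was -0.44 (deep) and -0.94 (shallow, where ND-2, the highest library, is the 1 chow sample). Without ND-2 the log2 fold change of Slc25a44 was -0.50 (adjusted p = 0.885 by edgeR). The glycine carrier Slc25a38, which serves the first step of haem synthesis, was the other member whose ranges separated downward. Its level was 9.34, 10.6 and 9.25 FPKM in ND and 8.49, 8.15, 9.18, 8.89 and 8.85 FPKM in HFD-1 to HFD-5 (log2 fold change -0.17 ± 0.10 (SE), adjusted p = 0.975 by edgeR). Such separation downward was seen for 2 of 38 members and for 1.65% of all tested genes.

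**Figure D3:**
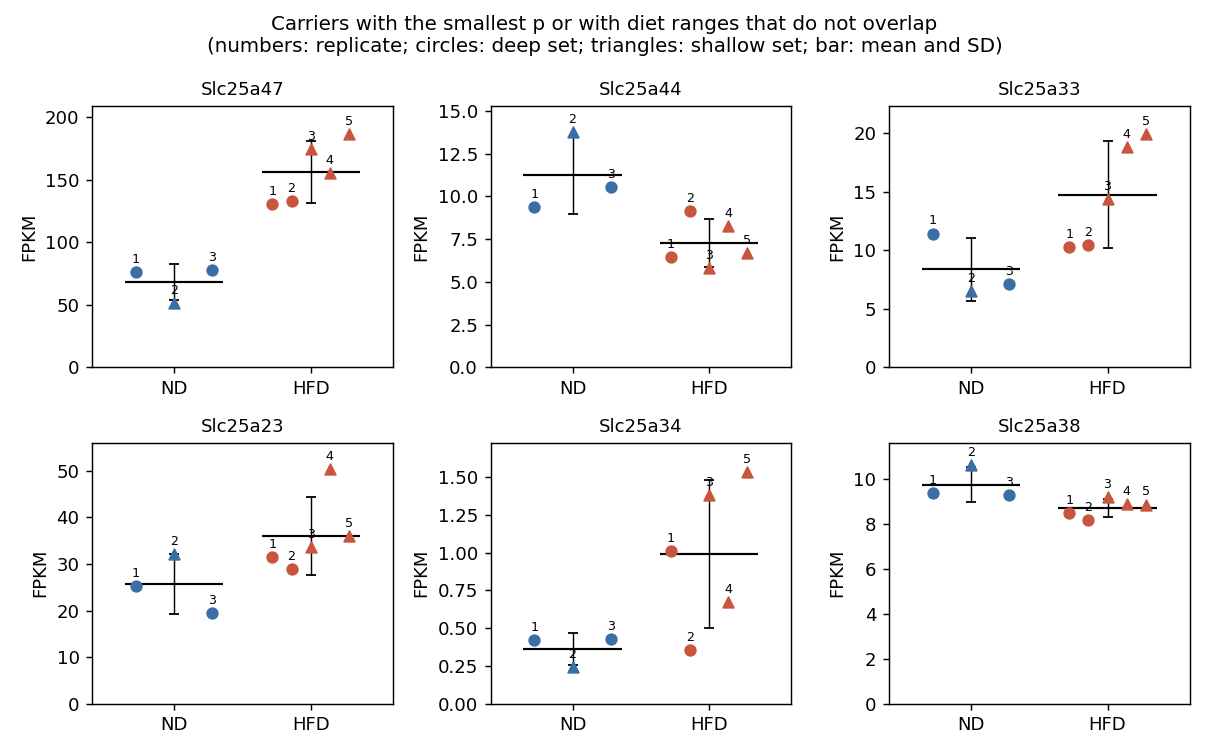
FPKM (y axis, from 0) of 6 carriers by diet, 1 point per library with its replicate number, circles for the deep and triangles for the shallow set, with the mean and SD in black. Slc25a47 lies at 131 FPKM or more in HFD against 77.4 FPKM or less in ND, and Slc25a44 and Slc25a38 lie lower in HFD without overlap, while Slc25a33, Slc25a23 and Slc25a34 overlap.

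Among carriers of adenine nucleotides, coenzyme A and phosphate, 9 of 11 were tested, 4 with higher and 5 with lower fitted values and 0 passing. Slc25a5, the ADP/ATP exchanger of most tissues, was at 281, 260 and 275 FPKM in ND and at 265, 278, 208, 255 and 245 FPKM in HFD-1 to HFD-5. The groups overlapped, and the log2 fold change of -0.13 had an interval of -0.41 to 0.14. Slc25a3, which imports phosphate for ATP synthesis, was at 86.7, 91.1 and 89.4 FPKM in ND and at 87.7, 87.2, 73.3, 92.3 and 89.2 FPKM in HFD-1 to HFD-5. HFD-3 was the lowest, and the log2 fold change of -0.06 had an interval of -0.31 to 0.19. A 2-fold change of either transcript thus lies outside its interval.

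Slc25a23 and Slc25a25 belong to the ATP-Mg/phosphate carriers, which calcium activates and which set the adenine nucleotide content of the matrix. Slc25a23 was at 25.3, 32.2 and 19.5 FPKM in ND and at 31.6, 28.97, 33.6, 50.3 and 36.04 FPKM in HFD-1 to HFD-5. The HFD libraries other than HFD-1 and HFD-2 lay above all ND libraries, and the log2 fold change was 0.48 ± 0.21 (SE, adjusted p = 0.856 by edgeR). The log2 CPM differences were alike in the sets, at 0.38 (deep) and 0.35 (shallow). Slc25a25 had means of 77.5 ± 22.4 FPKM (SD, n = 3) and 79.2 ± 50.5 FPKM (SD, n = 5), with single values of 95.4, 52.4 and 84.6 FPKM in ND and of 23.01, 124, 141, 60.7 and 48.2 FPKM in HFD-1 to HFD-5. Within the sets the log2 CPM difference of Slc25a25 was -0.81 (deep) and 0.56 (shallow). Slc25a24, of the same group, was at 0.676 to 1.25 FPKM over all libraries. Slc25a41, which lies 2.84 kb from Slc25a23 on chromosome 9, had 0 counts in every library, as did the testis-type ADP/ATP exchanger Slc25a31. A count of 0 allows up to 0.0830 CPM in the deepest and 0.237 CPM in the shallowest library (3 counts, counting error only).

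The coenzyme A carrier Slc25a42 was at 9.94, 14.99 and 9.63 FPKM in ND and at 17.0, 12.7, 15.3, 12.9 and 10.9 FPKM in HFD-1 to HFD-5 (log2 fold change 0.25 ± 0.17 (SE), adjusted p = 0.993 by edgeR). Within the sets its log2 CPM difference was 0.52 (deep) and -0.16 (shallow). Slc25a16, a carrier linked to coenzyme A import, and the peroxisomal carrier Slc25a17 were at 4.70 to 6.69 and 8.11 to 13.3 FPKM over all libraries, with log2 fold changes of 0.15 and -0.07.

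Of 7 carriers of dicarboxylates, aspartate and glutamate, 6 were tested and 0 passed. The aspartate/glutamate carrier Slc25a13 (citrin), which feeds both the malate-aspartate shuttle and the urea cycle in liver, was at 142, 114 and 135 FPKM in ND and at 157, 131, 148, 129 and 142 FPKM in HFD-1 to HFD-5. Its ranges overlapped, with a log2 fold change of 0.10 and an interval of -0.20 to 0.39. The oxoglutarate/malate carrier Slc25a11, its partner in the shuttle, had an interval of -0.18 to 0.29. Slc25a10, which exchanges malate and succinate for phosphate, had a mean of 68.9 ± 22.0 FPKM (SD, n = 3) and 61.8 ± 12.5 FPKM (SD, n = 5). Single libraries were at 73.0, 88.6 and 45.2 FPKM in ND and at 56.8, 44.1, 62.2, 77.5 and 68.5 FPKM in HFD-1 to HFD-5, with overlap. The oxoadipate carrier Slc25a21, of lysine and tryptophan breakdown, was at 1.29, 1.79 and 3.19 FPKM in ND and 0.923 to 1.89 FPKM in HFD, with the ND-3 value above all others (log2 fold change -0.58 ± 0.34 (SE), adjusted p = 0.975 by edgeR).

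The 8 carriers placed with ornithine and other amino acids, Slc25a47 and Slc25a44 among them, were all tested, with 5 higher and 3 lower fitted values. Carriers were grouped by hand, and the grouping does not establish a substrate for Slc25a47. Slc25a15 returns ornithine to the matrix in the urea cycle. It was at 224, 82.9 and 113 FPKM in ND and at 133, 99.1, 156, 179 and 161 FPKM in HFD-1 to HFD-5. The chow libraries held both the highest and the lowest value, and the log2 fold change was 0.03 with an interval of -0.71 to 0.76. Slc25a45 and Slc25a48, whose substrates were long unsettled, were at 0.359 to 1.40 and 4.43 to 8.42 FPKM over all libraries, with log2 fold changes of 0.13 and -0.15.

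Of 5 cofactor, nucleotide and glutathione carriers, 3 had higher and 2 lower fitted values. Slc25a33, which imports pyrimidine nucleotides, was at 11.4, 6.50 and 7.16 FPKM in ND and at 10.3, 10.4, 14.4, 18.8 and 19.96 FPKM in HFD-1 to HFD-5. HFD-1 and HFD-2 lay below ND-1 and the other 3 HFD libraries above it. The log2 fold change was 0.79 ± 0.31 (SE, adjusted p = 0.812 by edgeR), and the log2 CPM difference was 0.13 in the deep and 1.48 in the shallow set. The glutathione carrier Slc25a39 was at 58.1, 78.9 and 67.7 FPKM in ND and at 72.4, 66.2, 78.7, 81.1 and 71.6 FPKM in HFD-1 to HFD-5, with overlap. It and the related Slc25a40 had log2 fold changes of 0.11 ± 0.12 and -0.33 ± 0.16 (SE; adjusted p = 0.993 and 0.930 by edgeR). Slc25a40 was at 3.33, 2.86 and 3.19 FPKM in ND and at 2.53, 3.0, 2.44, 2.63 and 2.06 FPKM in HFD-1 to HFD-5, and 4 of 5 HFD libraries lay below all ND libraries. The S-adenosylmethionine carrier Slc25a26 was at 3.32 to 4.84 FPKM over all libraries, with a log2 fold change of -0.09.

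The mitoferrins Slc25a28 and Slc25a37 import iron for haem and iron-sulphur clusters. Slc25a37, the form known from erythroid cells, was at 6.57, 7.51 and 6.62 FPKM in ND and at 9.73, 8.22, 7.50, 9.69 and 6.69 FPKM in HFD-1 to HFD-5, with overlap (log2 fold change 0.27 ± 0.14 (SE), adjusted p = 0.940 by edgeR). Summed erythroid markers (3 of 5 symbols matched) ranged from 468 to 1424 FPKM in ND and from 755 to 1347 FPKM in HFD, and their part in this value was not tested. Slc25a28 was at 7.77, 11.4 and 6.93 FPKM in ND and at 7.82, 6.58, 9.07, 7.90 and 6.05 FPKM in HFD-1 to HFD-5 (log2 fold change -0.22 ± 0.18 (SE), adjusted p = 0.993 by edgeR).

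Of the carriers grouped here with the brain uncoupling proteins, Slc25a14 and Slc25a27 were low and Slc25a30 was at higher levels. Slc25a14 was at 1.31 to 2.24 FPKM and Slc25a27 at 0.135 to 0.535 FPKM over all libraries. Slc25a30, named after its values were seen, was at 4.03, 9.56 and 3.43 FPKM in ND and at 13.03, 9.46, 14.9, 3.70 and 3.46 FPKM in HFD-1 to HFD-5. Values above 9 FPKM thus occurred in both diets, and the log2 fold change of 0.67 ± 0.53 (SE) had an adjusted p of 0.993 by edgeR. Within the sets the log2 CPM difference of Slc25a30 was 1.505 (deep) and -0.67 (shallow).

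Of 6 other members, Slc25a34, whose substrate is unsettled, was at 0.422, 0.241 and 0.425 FPKM in ND and at 1.01, 0.354, 1.38, 0.674 and 1.53 FPKM in HFD-1 to HFD-5. HFD-2 lay within the chow range and the other 4 above it (log2 fold change 1.34 ± 0.51 (SE), adjusted p = 0.804 by edgeR). The log2 CPM difference was 0.40 within the deep and 2.02 within the shallow set, and the values rest on 4 to 44 counts per library. Slc25a43 was at 0.851, 0.942 and 1.2 FPKM in ND, at 1.21 FPKM in HFD-3 and at 0.399 to 0.586 FPKM in the other HFD libraries (log2 fold change -0.71 ± 0.35 (SE), adjusted p = 0.930 by edgeR). The outer-membrane member Slc25a46, which acts in mitochondrial dynamics, was at 11.9, 12.3 and 12.0 FPKM in ND and at 11.6, 12.6, 9.64, 11.03 and 9.83 FPKM in HFD-1 to HFD-5. Its log2 fold change of -0.16 had an interval of -0.40 to 0.09. Slc25a54 was at 0.0756 to 0.199 FPKM and was not tested, and Slc25a35 had a log2 fold change of -0.11.

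Several close relatives within the family, though not all, were expressed at very different levels. The ratio of Slc25a5 to Slc25a4, the ADP/ATP exchanger of heart and muscle, was 33.5 to 69.8 in ND and 37.2 to 87.2 in HFD, on the FPKM scale. Slc25a4 was at 4.93, 7.77 and 3.94 FPKM in ND and at 4.63, 3.19, 5.60, 4.64 and 4.38 FPKM in HFD-1 to HFD-5. Summed markers of striated muscle (4 of 4 matched) were at 0.745 to 1.13 FPKM in the 4 shallow libraries and at 0.00783 to 0.0248 FPKM in the 4 deep ones, and their part in the Slc25a4 level was not tested. The 2 highest Slc25a4 values were in ND-2 and HFD-3, both shallow. RefSeq lists 9 pseudogenes of Slc25a5 and 8 of Slc25a39, and the labels do not state how reads common to copies were counted.

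Slc25a13 exceeded the brain and muscle form Slc25a12 by 27.2 to 48 times in ND and by 18.7 to 44.5 times in HFD. Slc25a12 was at 3.69, 4.21 and 2.82 FPKM in ND and at 3.52, 3.92, 4.02, 6.90 and 4.27 FPKM in HFD-1 to HFD-5. Slc25a15 exceeded its near copy Slc25a2 by 62.9 to 242 times in ND and by 81.7 to 146 times in HFD. Slc25a2 was at 0.924, 1.32 and 1.07 FPKM in ND and at 1.61, 1.21, 1.07, 1.74 and 1.32 FPKM in HFD-1 to HFD-5, a level that reads shared with Slc25a15 could affect.

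The glutamate carrier Slc25a22 was at 7.25 to 25.9 FPKM over all libraries, and its brain form Slc25a18 had 0 to 2 counts per library. The mitoferrins were the pair at like levels, with a ratio of Slc25a28 to Slc25a37 of 1.05 to 1.52 in ND and 0.800 to 1.21 in HFD. Slc25a33 exceeded the row named Slc25a36l1 by 1.98 to 3.43 times in ND and by 2.78 to 6.66 times in HFD. Slc25a36l1 was at 3.34, 2.70 and 3.61 FPKM in ND and at 2.89, 3.75, 4.02, 2.83 and 3.31 FPKM in HFD-1 to HFD-5 (log2 fold change 0.03 ± 0.20 (SE), adjusted p = 0.998 by edgeR). That row lies on chromosome 8 in the authors' table, whereas RefSeq's GRCr8 places Slc25a36 on chromosome 8 and Slc25a36l1 on chromosome 19.

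**Figure D4:**
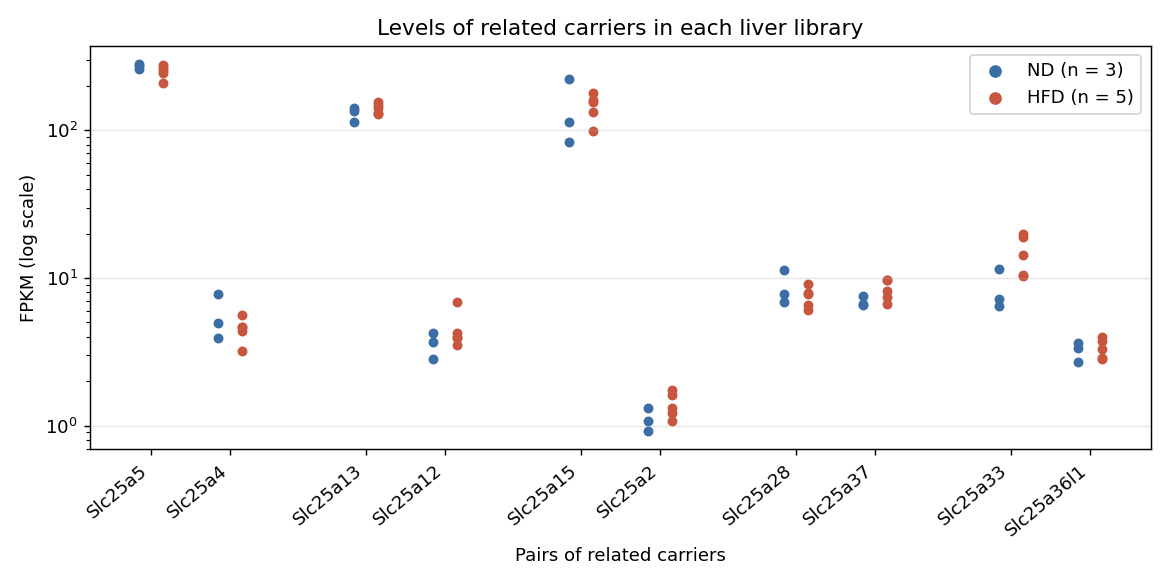
FPKM (log axis) of 5 pairs of related carriers, 1 point per library, ND in blue (n = 3) and HFD in red (n = 5). In the pairs led by Slc25a5, Slc25a13 and Slc25a15 the relatives lie at least 18.7 times apart in every library, and the mitoferrins overlap.

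Among the 31 members with a mean of at least 1 FPKM, 4 differed by more than 3-fold between the highest and the lowest library of the same diet. They were Slc25a25 (6.11-fold in HFD), Slc25a32 (3.82-fold in ND and 4.42-fold in HFD), Slc25a30 (4.32-fold in HFD) and Slc25a22 (3.57-fold in HFD). These are 12.9% of the members at that level, and the share over all 11524 tested genes at that level was 9.79%. Slc25a47 differed by 1.51-fold within ND and 1.43-fold within HFD. Over all 8 libraries Slc25a3, Slc25a11 and Slc25a38 varied least, by 1.26, 1.27 and 1.30 times.

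A shared library pattern was noticed after the values were seen. The 4 highest libraries were HFD-3 to HFD-5 and ND-1 for Slc25a32, Slc25a22, Slc25a33, Slc25a15 and Slc25a29, 5 of the 38 tested members (13.2%), against 1.65% (234) of all tested genes. The pattern was picked on the members, so the shares are a description. The folate carrier Slc25a32, which supplies mitochondrial one-carbon metabolism, was at 41.5 FPKM in ND-1 and at 11.7 and 10.9 FPKM in ND-2 and ND-3. On the high fat diet it was at 12.8 and 13.3 FPKM in HFD-1 and HFD-2 and at 30.4, 44.5 and 56.3 FPKM in HFD-3 to HFD-5. Its log2 fold change was 0.53 ± 0.63 (SE, adjusted p = 0.993 by edgeR), and the differences within the sets were -0.77 (deep) and 1.91 (shallow). The log2 fold change was 1.505 when ND-1 was left out, and leaving out each other library gave 0.17 to 0.73. With depth set as a covariate it was -0.05. Slc25a22 was at 16.8, 10.4 and 9.03 FPKM in ND and at 7.25, 9.88, 18.5, 25.9 and 22.3 FPKM in HFD-1 to HFD-5, with differences of -0.60 and 1.13 in the sets. Its log2 fold change was 0.45 ± 0.42 (SE, adjusted p = 0.993 by edgeR), and 0.02 with depth set as a covariate. Leaving out ND-1 gave 0.80, and each other library in turn 0.25 to 0.64. The direction differed between the sets in both carriers, and the difference in the shallow set rests on ND-2 alone for its ND value. It also differed for Slc25a15 (-0.53 deep, 1.05 shallow) and Slc25a29 (-0.74 deep, 1.29 shallow). For Slc25a33, also of this pattern, it did not (0.13 deep, 1.48 shallow).

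**Figure D5:**
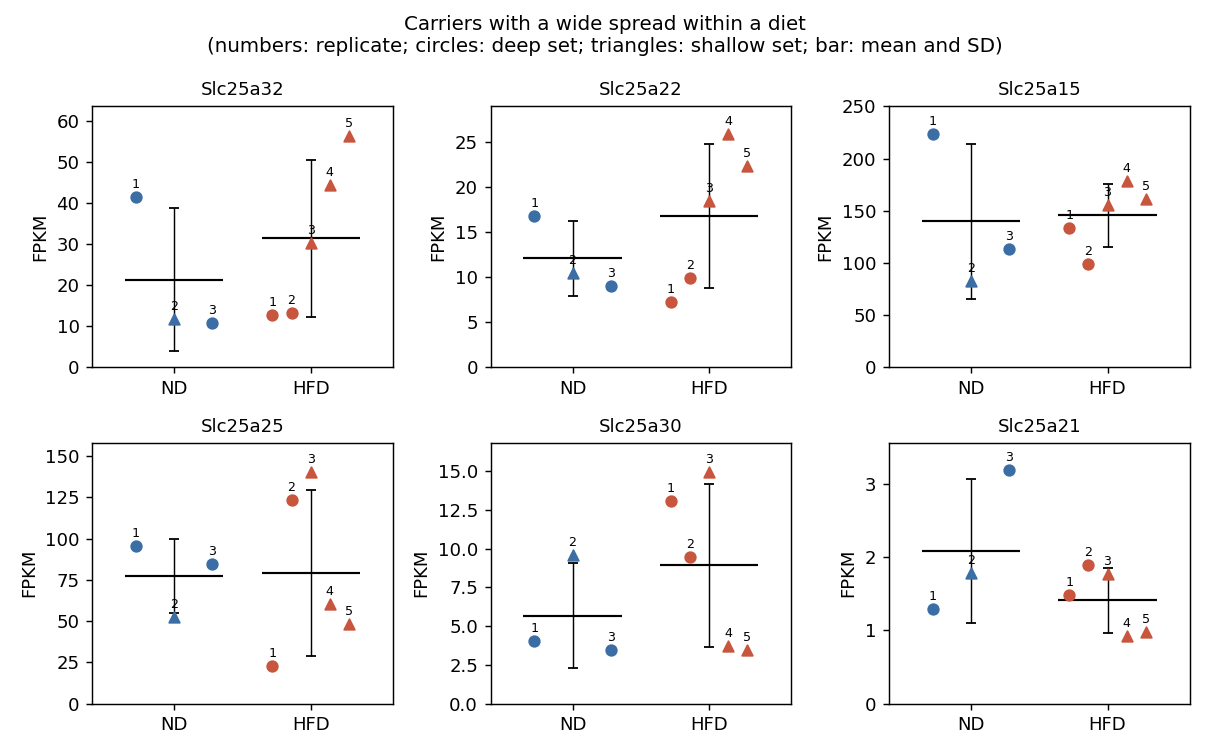
FPKM (y axis, from 0) of the 6 carriers with the widest spread within a diet among members with a mean of at least 1 FPKM, drawn as in the plot of single carriers by diet. Slc25a32, Slc25a22 and Slc25a15 are high in ND-1 and HFD-3 to HFD-5, while Slc25a25 and Slc25a30 are highest in HFD-3.

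The other genes of mitochondrial transport came from a fixed list of 34 symbols, of which 32 were found and 30 tested. They covered the pyruvate carrier, porins, sideroflexins, uncoupling proteins with outer-membrane relatives, carrier import and shuttle enzymes. The 2 carriers with an Slc25a symbol left out above were also listed. Members were picked by symbol, so relatives under other symbols, such as the uncoupling proteins, were not among them. Of the 30 tested 0 passed (0.00707% of all tested genes did), and 3 had an unadjusted p under 0.05 by edgeR (5.71% of all). Fitted values were higher for 8 and lower for 22, against 7248 and 6900 of all tested genes. The median log2 fold change was -0.08, and 0.01 over all tested genes. Mdh1, the cytosolic malate dehydrogenase of the malate-aspartate shuttle, was at 273 ± 33.2 FPKM in ND (SD, n = 3) and 179 ± 34.7 FPKM in HFD (SD, n = 5), without overlap (log2 fold change -0.62 ± 0.18 (SE), adjusted p = 0.517 by edgeR). Mpc2, a subunit of the pyruvate carrier, was at 182 ± 10.3 and 227 ± 18.3 FPKM, also without overlap (log2 fold change 0.30 ± 0.10 (SE), adjusted p = 0.651 by edgeR). Slc25a20 and Slc25a1 had log2 fold changes of 0.27 ± 0.10 and -0.38 ± 0.18 (SE; adjusted p = 0.803 and 0.930 by edgeR). Every HFD library lay above every ND library for 3 of the 30, Mpc2, Slc25a20 and Mpc1, and below for 1, Mdh1. The shares over all tested genes were 2.25% above and 1.65% below. Mpc1 had a log2 fold change of 0.14 ± 0.11 (SE, adjusted p = 0.993 by edgeR). The 9 tested genes of carrier import had a median of -0.09 and the 3 porins of -0.05. Ucp2 was at 2.36 to 7.13 FPKM over all libraries, and Ucp1, the brown fat uncoupling protein, was listed at 0 FPKM in every library.

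Transcripts of the lncRNA table offered another readout at the same loci. In all 45 transcripts shared at least 1 base with the span of a member, at 23 members, and 42 of them were tested with limma on log2(FPKM + 0.5). Of the 42, 0 passed (0.0101% of all 19799 tested transcripts did), and 3 had an unadjusted p under 0.05 (5.21% of all). NONRATT012768.2 (264 nt, chromosome 17, 8570459 to 8576202) overlaps Slc25a48 and was at 101 ± 32.4 FPKM in ND (SD, n = 3) and 60.3 ± 17.7 FPKM in HFD (SD, n = 5; limma's adjusted p = 0.838). NONRATT005146.2 (707 nt, chromosome 10, 109665663 to 109670626, at Slc25a10) was at 74.8 ± 12.0 and 57.4 ± 5.15 FPKM (limma's adjusted p = 0.929), and NONRATT028166.2 (271 nt, chromosome 8, 128790370 to 128798539, at Slc25a38) at 34.4 ± 5.50 and 48.4 ± 9.49 FPKM (limma's adjusted p = 0.951). The fitted log2 difference of the last was positive (0.48) and that of Slc25a38 itself negative. NONRATT028165.2, with the same span as the last, had a difference of -0.14 (limma's adjusted p = 0.988). NONRATT005145.2, with the same span as NONRATT005146.2, had one of -0.07, against -0.37 for the latter (limma's adjusted p = 0.989 for the former). No source states whether counting used strand, and reads of a transcript and of the carrier it overlaps cannot be told apart.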

How the data were processed

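Gene counts and FPKM and lncRNA FPKM were deposited by the authors. The submitters' processing notes name the build Rnor_6.0, Cuffdiff, Cufflinks 2.2.1 and TopHat2 2.0.9, without saying which tool made which column or which annotation was used. The authors' lncRNA signal columns (scaled fragments) and 4 group columns were not used. The authors' gene counts were compared by edgeR 4.0.16 in R 4.3.3 over the whole table (filterByExpr, TMM factors, a 2-sided quasi-likelihood test). The SE is the log2 fold change divided by the root of F. lncRNAs were tested with limma 3.58.1 (variance trend) where FPKM reached 0.5 in at least 3 libraries. Depth was 12678616 to 36152937 counts per library.

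The members and lists were chosen with earlier results of these data known. The rule for named members took the 12 with the smallest p, the 8 with the highest mean FPKM and both members of 6 close pairs. Every other member described was named after its values were seen, as were the library pattern and the spread within a diet. The pipeline was tested on simulated data. Alternatives were DESeq2 1.42.0, other scalings and filters, limma on FPKM, a depth covariate, a replicate block and leaving out each library.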

Additional observations from a re-analysis of the deposited data

Results flagged for a closer look

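Of 28 members checked, 3 had an HFD library far from the other 4, by a gap of more than 0.71 of the group's range, where chance flags about 1 group in 20. Slc25a43 was at 1.21 FPKM in HFD-3 against 0.399 to 0.586 FPKM, and the phosphate carrier Slc25a3 was at 73.3 FPKM in HFD-3 against 87.2 to 92.3 FPKM. HFD-3 also held the highest summed Kupffer cell markers, 308 FPKM, and the highest summed lymphocyte and neutrophil markers, 45.9 FPKM. The part of either in these values was not tested. Slc25a12 was at 6.90 FPKM in HFD-4 against 3.52 to 4.27 FPKM in the other HFD libraries.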

How the results depend on the processing

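By edgeR 0 members passed in any fit with other scalings, filters, the depth covariate or 1 library left out, nor by limma on FPKM. DESeq2 called 1, Slc25a47. The log2 fold change of Slc25a47 lay between 0.98 and 1.29 with 1 library left out. Under the other scalings, filters and tests and the depth covariate it lay between 1.15 and 1.198. It was 1.076 in the replicate block and 1.056 on the same libraries without the block. The members with an unadjusted p under 0.05 numbered 2 to 6 with 1 library left out (2 without ND-3, 3 without HFD-4 or HFD-5), and Slc25a47 and Slc25a44 were among them each time. The labels tie the replicate numbers to no shared rat or batch, and deviations of same-numbered libraries correlated at 0.112, -0.275 and 0.073. With the replicate block (6 libraries) 0 members passed and 4 had an unadjusted p under 0.05, against 3 on the same libraries without it, a fit added after seeing the data.

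Of 504 values for single members, 24 changed sign, none of them for Slc25a47 or Slc25a44. In the replicate block these were Slc25a15 (-0.039), Slc25a22 (-0.12), Slc25a32 (-0.028) and Slc25a11 (-0.0050), and on the same libraries without it -0.17, -0.079, -0.25 and -0.0055. Slc25a25 was at -0.20 in limma with either pseudocount, and Slc25a32 at -0.046 with the depth covariate. With 1 library left out, Slc25a15 ran from -0.26 to 0.58, Slc25a13 from -0.017 to 0.19, Slc25a25 from -0.30 to 0.24, Slc25a10 from -0.39 to 0.016, Slc25a36l1 from -0.094 to 0.12 and Slc25a11 from -0.0079 to 0.10. The cause was not tested. Over all genes edgeR called 1, DESeq2 126, edgeR without the filter 18, the replicate block 7, and fits without 1 library 0 to 9. None of the listed other genes of mitochondrial transport and none of the lncRNA transcripts overlapping a member passed in any alternative. The biological coefficient of variation was 26%, and depth limits Slc25a34, with 4 to 44 counts per library.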
